A study of Rattus norvegicus with 12 samples.

Results

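The 10 genes described here are switched on when a cell runs short of amino acids or when unfolded protein collects in its endoplasmic reticulum (ER): Atf4, Ddit3, Atf3, Trib3, Chac1, Asns, Slc7a11, Sesn2, Hspa5 and Xbp1. They were found by name among the gene probes of a one-colour Agilent rat array, and make up 10 of the 26456 genes on it. Of these, 9 were matched by the printed symbol. Sesn2 is printed as RGD1566319 and was named through its RefSeq transcript accession. Slc7a11 has 2 probes and each of the others has 1, and all 11 probes passed the filter on dim probes described below.

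Each of the 12 arrays held total RNA from the lumbar mammary gland of 1 female Wistar rat, a bulk tissue of fat, ducts, vessels and immune cells from which visible lymph nodes had been cut away. The mothers were fed a diet with 17.0% protein (normal protein, NP) or 8.8% protein (low protein, LP) throughout pregnancy. From birth on, every animal in both groups lived on the same standard chow, with suckling until weaning at day 21 (d21). The daughters were examined at d21 or a week later at d28, with 3 arrays in each of the groups NP d21, LP d21, NP d28 and LP d28. The diets of the groups thus differed before birth only. Nothing in the labels says whether rats of a group came from different mothers, or whether rats of d21 and d28 shared a mother. The methods of the study say that animals of each litter were killed at both days, without linking the arrays to litters. The p-values thus measure the spread between these animals, which may include littermates within a group and across the days.

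Both stress pathways meet at one switch. A lack of amino acids activates the kinase Gcn2, unfolded protein in the ER activates the kinase Perk, and both phosphorylate the initiation factor eIF2 alpha, which slows protein synthesis overall while the transcription factor Atf4 is translated more. Atf4 then turns on genes for amino acid synthesis and uptake, and, when stress lasts, Ddit3 (also called CHOP) and Trib3. ER stress has 2 further sensors: Ire1 (gene Ern1) splices the mRNA of the transcription factor Xbp1, and Atf6 is cut in the Golgi to free a transcription factor that raises chaperones such as Hspa5 (BiP). In the mammary gland Xbp1 and the chaperones are known for their part in the secretory epithelium, and Xbp1 is also needed by plasma cells.

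Promoter sequence was searched for the elements known from the 2 arms, and it was read from RefSeq on GRCr8 for the 250 bases before each gene's start. Of the 10 genes, 9 are in that table, and Atf3 is not among them. The ER stress element (ERSE), which binds Atf6 together with NF-Y, is CCAAT, 9 bases of any kind, then CCACG. It was searched for on both strands, as was the C/EBP-ATF response element (CARE) that Atf4 binds, TGATG, 1 base of any kind, then AA. ERSE was found in 22 of 33469 promoters (0.0657%), and among the 9 members in Hspa5 and Xbp1. CARE was found in 1139 promoters (3.4%), and among the members in Trib3 and Chac1. The Xbp1 protein's element TGACGTGG lay in 174 promoters (0.52%) and in none of the 9, and the CCAAT box alone, which every ERSE contains, lay in 11385 (34%) and in 5 of the 9. The 4 promoters that hold an element are shown 5′ to 3′ on the strand of the gene, ending at the base before the start, with the element in capitals.
Hspa5: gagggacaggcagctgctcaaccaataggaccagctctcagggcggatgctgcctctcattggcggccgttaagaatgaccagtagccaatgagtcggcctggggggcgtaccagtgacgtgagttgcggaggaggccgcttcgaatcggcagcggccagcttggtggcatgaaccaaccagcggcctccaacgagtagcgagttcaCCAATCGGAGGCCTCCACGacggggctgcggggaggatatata
Xbp1: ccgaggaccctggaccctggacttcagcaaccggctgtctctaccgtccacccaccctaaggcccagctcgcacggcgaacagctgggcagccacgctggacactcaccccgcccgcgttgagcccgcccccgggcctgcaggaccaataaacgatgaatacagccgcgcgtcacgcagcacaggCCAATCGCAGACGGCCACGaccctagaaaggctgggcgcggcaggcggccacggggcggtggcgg
Trib3: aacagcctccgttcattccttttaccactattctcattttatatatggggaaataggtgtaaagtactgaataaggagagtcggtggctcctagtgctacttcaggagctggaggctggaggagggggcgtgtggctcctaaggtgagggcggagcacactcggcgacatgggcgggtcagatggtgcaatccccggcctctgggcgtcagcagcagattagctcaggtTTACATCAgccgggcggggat
Chac1: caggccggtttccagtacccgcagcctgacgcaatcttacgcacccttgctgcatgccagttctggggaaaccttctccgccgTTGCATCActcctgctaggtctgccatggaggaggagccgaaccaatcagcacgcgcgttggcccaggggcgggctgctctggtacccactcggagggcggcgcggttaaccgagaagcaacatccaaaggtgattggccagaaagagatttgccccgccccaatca

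These stretches lie at chr3:38452766-38453015 on the plus strand (Hspa5), chr14:84604373-84604622 on the plus strand (Xbp1), chr3:161275534-161275783 on the minus strand (Trib3) and chr3:126795881-126796130 on the plus strand (Chac1). The element of Hspa5 runs from 43 to 25 bases before the start, and that of Xbp1 from 65 to 47 bases before it. In Trib3 and Chac1 the CARE letters are on the opposite strand, so that the printed capitals are their reverse complement, 21 to 14 and 167 to 160 bases before the start. A match of letters is a description of the promoter and was not tested as a binding site, and a promoter without a match can carry an element elsewhere.

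Levels are log2 of the processed signal minus the 75th percentile of the gene spots on the same array, so that 0 is the level of the 75th percentile and a difference of 1 is a doubling. A spot of any probe has its own brightness, so levels are compared between arrays and never between genes. Between 74.8% and 79.6% of gene spots were well above background on the 12 arrays, and the 75th percentile itself lay between 1451 and 2370 units of signal. By probes that lay far below every other array, 2 arrays stood apart, and probes that lay far above were not counted. On LP d21 rat 6a, 362 probes lay more than 2 log2 units below every other array, and on NP d28 rat 4f 106 probes did, against at most 9 on any other array. The plots of the diet and day differences show each member with and without the array of that comparison, and the values most moved are also given in the text. All d21 arrays were on one slide and all d28 arrays on the other, so day and slide cannot be told apart.

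The answer of these data to the diet question is that no member passed the test. In the limma fit across 23209 probes, 0 of the 10 members had a Benjamini-Hochberg adjusted p under 0.05 for LP against NP at d21, at d28 or over both days. The same held for all probes, with 0 called in each of these comparisons (0%), and for the change of the diet difference between the days (0%). The lowest adjusted p of a member was 0.861 at d21, 0.581 at d28 and 0.418 over both days. At an unadjusted p under 0.05 the limma fit had 1 member at d21 (Sesn2, against 4.36% of all probes), 1 at d28 (Xbp1, against 8.07%), 2 over both days (Xbp1 and Sesn2, against 11.9%) and 0 for the change between days (against 2.26%). The 3 arrays of LP and of NP did not overlap for 4 of 10 members at d21, where 11.5% of all probes did not, and for 1 of 10 at d28, where 16.8% did not. At d21 these were Hspa5, higher in LP, and Atf3, Slc7a11 and Sesn2, lower in LP. At d28 it was Xbp1, higher in LP. Across the members the median difference was −0.16 at d21, where all probes had 0.01, and −0.09 at d28, where all probes had −0.05.

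**Figure D1:**
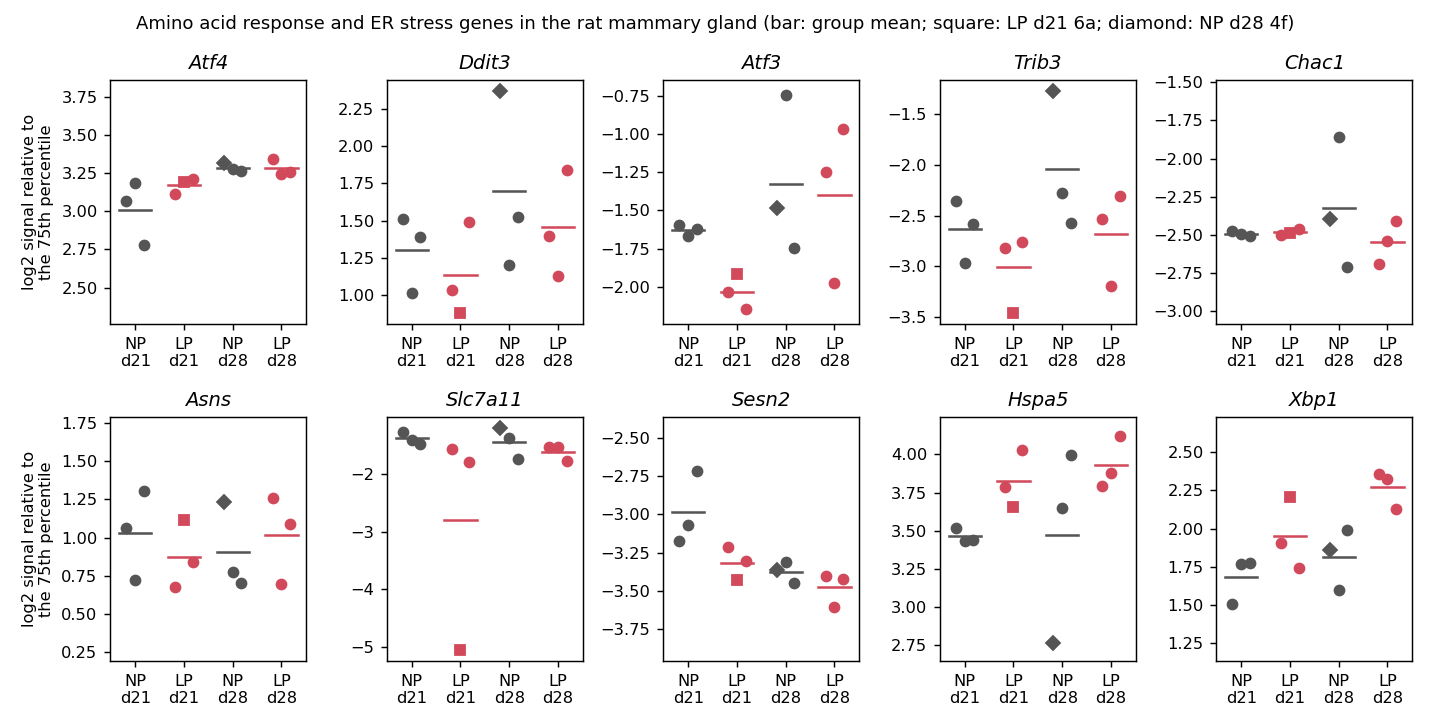
Level of each gene on every array. The vertical axes give log2 signal relative to the array's 75th percentile, points are single rats (grey NP, red LP), bars are group means, the square is LP d21 rat 6a and the diamond NP d28 rat 4f. All 3 LP points of Xbp1 at d28 sit above the 3 NP points, and the Slc7a11 square sits at −5.07, far below the other 11 arrays.

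Atf4 encodes the transcription factor at the head of the amino acid response, and its probe gave a bright signal on all 12 arrays. Its probe lies at chr7:118538840-118538899 (rn4, plus strand). In NP d21 rats 4a, 5a and 6a its log2 level was 3.06, 3.18 and 2.78, and in LP d21 rats 4a, 6a and 7c it was 3.12, 3.19 and 3.21. At d28 the NP rats 4f, 5f and 6f had 3.31, 3.28 and 3.26 and the LP rats 4f, 6f and 7f 3.34, 3.24 and 3.26. The diets overlapped on both days, and the whole range over 12 arrays was 0.56 log2 units (1.48-fold), the narrowest among the members. LP minus NP was 0.16 (SE 0.11) at d21 and −0.00 (SE 0.11) at d28, with a 95% interval at d28 of −0.24 to 0.23. Since Atf4 is controlled mainly in translation, its protein and activity were not measured by this array.

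Ddit3, a factor of the same family that promotes cell death under lasting stress, varied more between rats than between diets. Its log2 level in NP d21 rats 4a, 5a and 6a was 1.51, 1.01 and 1.39 and in LP d21 rats 4a, 6a and 7c 1.03, 0.88 and 1.49. At d28 it was 2.37, 1.20 and 1.53 in NP rats 4f, 5f and 6f and 1.4, 1.13 and 1.84 in LP rats 4f, 6f and 7f. NP d28 rat 4f was the highest of all 12 arrays, and the diets overlapped on both days. The LP minus NP difference was −0.17 (SE 0.31) at d21 and −0.24 (SE 0.31) at d28. Without NP d28 rat 4f the d28 difference was 0.10 (SE 0.26), in the opposite direction, and without LP d21 rat 6a the d21 difference was −0.04 (SE 0.35).

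Atf3, an early stress factor induced downstream of Atf4, was lower in all 3 LP rats at d21. Its probe lies at chr13:107191691-107191749 (rn4, minus strand). The log2 level was −1.59, −1.67 and −1.62 in NP d21 rats 4a, 5a and 6a and −2.03, −1.92 and −2.14 in LP d21 rats 4a, 6a and 7c, with no overlap and little spread in either group. By d28 both groups had spread out and overlapped, with −1.48, −0.74 and −1.75 in NP rats 4f, 5f and 6f and −1.25, −1.97 and −0.97 in LP rats 4f, 6f and 7f. LP minus NP was −0.40 (SE 0.28, adjusted p = 0.862) at d21 and −0.07 (SE 0.28) at d28. The SE is taken over the 4 groups together, so the wide d28 groups enter the d21 test as well.

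Among the Atf4 targets, Trib3 encodes a pseudokinase that damps Atf4 and insulin signalling. It is a dim probe, at chr3:142664936-142664995 (rn4, minus strand), well above background on 12 of 12 arrays. Its log2 level was −2.35, −2.96 and −2.58 in NP d21 rats 4a, 5a and 6a and −2.82, −3.46 and −2.76 in LP d21 rats 4a, 6a and 7c. At d28 NP rats 4f, 5f and 6f had −1.27, −2.28 and −2.57 and LP rats 4f, 6f and 7f had −2.53, −3.19 and −2.30. The highest array was again NP d28 rat 4f, and the lowest was LP d21 rat 6a, the arrays that stood apart. LP minus NP was −0.38 (SE 0.36) at d21 and −0.64 (SE 0.36) at d28. These became −0.15 (SE 0.38) without LP d21 rat 6a and −0.25 (SE 0.31) without NP d28 rat 4f.

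Chac1 encodes an enzyme that breaks down glutathione, and with Trib3 it is one of the members whose promoter holds CARE. Its probe is dim and was read from 1 spot per array. At d21 its log2 level was almost the same in all 6 rats, −2.47, −2.50 and −2.51 in NP rats 4a, 5a and 6a and −2.50, −2.49 and −2.46 in LP rats 4a, 6a and 7c. At d28 it was −2.40, −1.86 and −2.71 in NP rats 4f, 5f and 6f and −2.69, −2.54 and −2.41 in LP rats 4f, 6f and 7f. The diets overlapped on both days. The difference was 0.01 (SE 0.18, 95% interval −0.39 to 0.41) at d21 and −0.22 (SE 0.18, 95% interval −0.63 to 0.18) at d28.

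Asns encodes asparagine synthetase, which makes asparagine from aspartate and is a standard readout of amino acid shortage. Its log2 level was 1.07, 0.72 and 1.30 in NP d21 rats 4a, 5a and 6a and 0.67, 1.11 and 0.84 in LP d21 rats 4a, 6a and 7c. At d28 it was 1.23, 0.78 and 0.70 in NP rats 4f, 5f and 6f and 1.26, 0.70 and 1.09 in LP rats 4f, 6f and 7f. The diets overlapped on both days, and the 12 arrays lay between 0.67 and 1.30. LP minus NP was −0.15 (SE 0.21, 95% interval −0.63 to 0.32) at d21 and 0.11 (SE 0.21, 95% interval −0.36 to 0.59) at d28, and both intervals contain 0. Without LP d21 rat 6a the d21 difference was −0.27 (SE 0.23), and without NP d28 rat 4f the d28 difference was 0.27 (SE 0.22).

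Sesn2 encodes sestrin 2, which senses leucine and restrains mTORC1. It was dim but well above background on all 12 arrays, from 1 spot per array. Its log2 level was −3.17, −3.07 and −2.72 in NP d21 rats 4a, 5a and 6a and −3.21, −3.43 and −3.31 in LP d21 rats 4a, 6a and 7c, so each LP rat lay below each NP rat. At d28 NP rats 4f, 5f and 6f had −3.37, −3.31 and −3.45 and LP rats 4f, 6f and 7f −3.40, −3.61 and −3.42, and the diets overlapped. The LP minus NP difference was −0.33 (SE 0.13, adjusted p = 0.861) at d21, −0.10 (SE 0.13) at d28 and −0.22 (SE 0.09, adjusted p = 0.418) over both days. The d21 difference was −0.19 (SE 0.11) without NP d21 rat 6a, the highest array, and −0.27 (SE 0.14) without LP d21 rat 6a, and its unadjusted p was above 0.05 in both cases. The array annotation puts this probe on the plus strand of rn4, whereas RefSeq has Sesn2 on the minus strand of GRCr8. Of 44 matched probes in its neighbourhood 25 (56.8%) have the same strand in both, against 96.3% of all 14250, so whether it reads the sense strand is not settled.

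Slc7a11 encodes xCT, the subunit that imports cystine in exchange for glutamate, and its diet difference at d21 turned on 1 rat. Its main probe lies at chr2:139241468-139241527 and the second at chr2:139248397-139248456 (rn4, minus strand). On the main probe the log2 level was −1.26, −1.40 and −1.46 in NP d21 rats 4a, 5a and 6a and −1.56, −5.07 and −1.79 in LP d21 rats 4a, 6a and 7c. At d28 it was −1.20, −1.37 and −1.73 in NP rats 4f, 5f and 6f and −1.53, −1.52 and −1.77 in LP rats 4f, 6f and 7f. LP d21 rat 6a lay 3.28 log2 units below the lowest of the other 11 arrays. The second probe showed the same rat lowest, with −5.46, −5.62 and −5.32 in the NP d21 rats and −5.92, −8.76 and −6.07 in the LP d21 rats, but there it was not well above background, so that its level on that array is only a bound. On the main probe LP minus NP at d21 was −1.43 (SE 0.73, adjusted p = 0.861). Without rat 6a the main probe gave −0.30 (SE 0.17), and the remaining LP rats still lay below the 3 NP rats. At d28 the difference was −0.17 (SE 0.73) and the diets overlapped.

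Markers of lymphocytes moved with Slc7a11 in that rat. Its gap was matched or exceeded by 153 probes on LP d21 rat 6a, and those with the widest gaps were led by Cd27 (7.17 log2 units), with the T cell genes Cd3g, Cd3e and Cd2 among those that follow. All 7 T cell markers had a lower mean in LP at d21, with a median difference of −2.15. Their mean log2 level was between 0.01 and 0.07 in NP d21 rats and between −5.25 and 0.03 in LP d21 rats, and 2 of the 7 were not well above background on rat 6a. Of 7 B and plasma cell markers 6 were lower in LP at d21, with a list mean between −1.70 and −1.24 in NP and between −5.16 and −1.85 in LP, and 3 of the 7 were not well above background on rat 6a. Without that rat the median differences were −0.23 and −0.49. In bulk tissue fewer cells of a type and less RNA per cell cannot be told apart, and the part of the lymphocyte markers in the Slc7a11 difference was not tested.

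**Figure D2:**
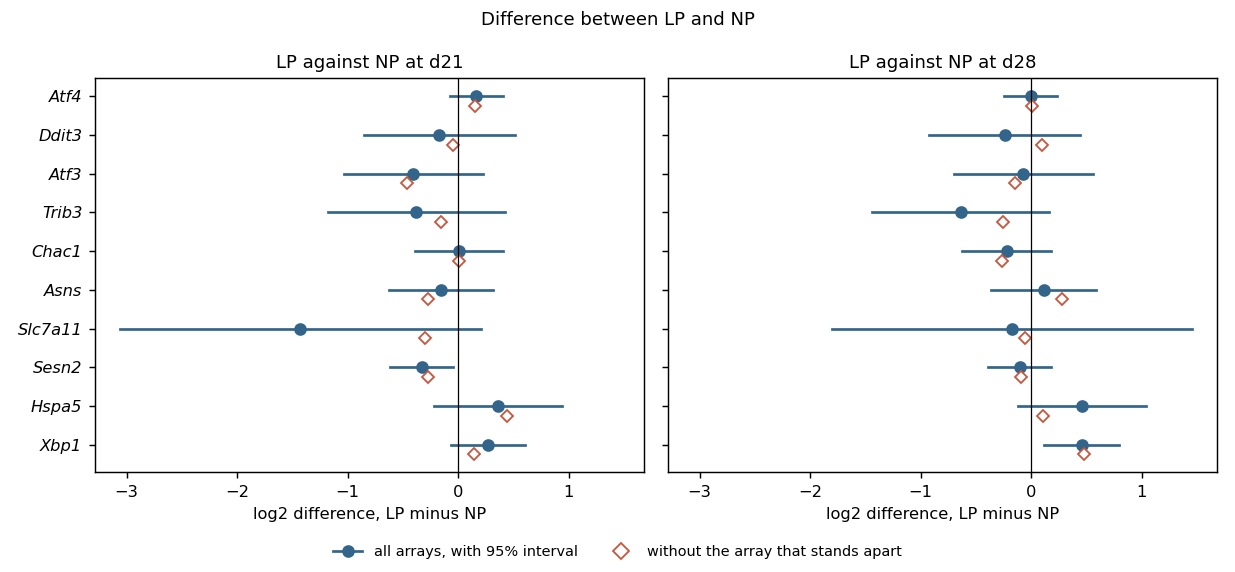
Difference between LP and NP for each gene at d21 (left) and d28 (right). The horizontal axes give log2 LP minus NP, circles are the fit on all 12 arrays with 95% intervals, and open diamonds leave out LP d21 rat 6a (left) or NP d28 rat 4f (right). Slc7a11 at d21 moves from −1.43 to −0.30, Hspa5 at d28 moves from 0.46 to 0.11, and Xbp1 at d28 stays at 0.45 and 0.48.

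Turning to the ER arm, Hspa5 encodes BiP, the most abundant chaperone of the ER and the one that holds the stress sensors inactive. Its probe lies at chr3:13787739-13787798 (rn4, plus strand). The log2 level was 3.52, 3.43 and 3.44 in NP d21 rats 4a, 5a and 6a and 3.78, 3.66 and 4.03 in LP d21 rats 4a, 6a and 7c, so that all LP rats lay above all NP rats. At d28 the NP rats 4f, 5f and 6f had 2.77, 3.65 and 4.00 and the LP rats 4f, 6f and 7f 3.8, 3.88 and 4.12, which overlapped. LP minus NP was 0.36 (SE 0.26, adjusted p = 0.862) at d21, 0.46 (SE 0.26, adjusted p = 0.581) at d28 and 0.41 (SE 0.18, adjusted p = 0.418) over both days. Much of the d28 value came from NP d28 rat 4f, the lowest of the 12 arrays, and without it the d28 difference was 0.11 (SE 0.15). Without that rat the d21 difference stayed at 0.36, with a smaller SE of 0.14 (limma adjusted p = 0.709). The difference over both days was then 0.23 (SE 0.10, limma adjusted p = 0.577).

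Xbp1, the transcription factor that Ire1 activates by splicing, had the smallest unadjusted p of any member against diet. Its probe lies at chr14:86156913-86156972 (rn4, plus strand) and does not separate the spliced from the unspliced form as far as the array annotation tells. The log2 level was 1.5, 1.77 and 1.77 in NP d21 rats 4a, 5a and 6a and 1.90, 2.21 and 1.74 in LP d21 rats 4a, 6a and 7c, with an overlap at the bottom of the LP group. At d28 it was 1.86, 1.6 and 1.99 in NP rats 4f, 5f and 6f and 2.36, 2.33 and 2.13 in LP rats 4f, 6f and 7f, with none. The LP minus NP difference was 0.27 (SE 0.15) at d21, 0.45 (SE 0.15, 1.37-fold, adjusted p = 0.581) at d28 and 0.36 (SE 0.11, 1.29-fold, adjusted p = 0.418) over both days. Over both days it ranked 294 by p among the 23209 probes. Without NP d28 rat 4f the d28 difference was 0.48 (SE 0.17), and without LP d21 rat 6a the d21 difference was 0.14 (SE 0.15).

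The other ER chaperones and folding enzymes, a list of 17 genes without Hspa5, lay the same way. None was called (adjusted p = 0.418 at the lowest, over both days). At d21 15 of the 17 had a higher mean in LP and at d28 17 of 17, with median differences of 0.19 and 0.26, beside 52.2% and 42.7% of all probes higher. Without LP d21 rat 6a the d21 count was 16 of 17, and without NP d28 rat 4f the d28 count was 13 of 17 with a median of 0.09. On the mean of the list the d21 groups did not overlap, between 0.23 and 0.32 in NP and between 0.34 and 0.50 in LP, while the d28 groups did. The list means of the diets did not overlap in other lists as well. At d21 these were the sensors and regulators of eIF2 alpha and the B and plasma cell markers, lower in LP. At d28 they were other Atf4 pathway genes, amino acid transporters and luminal markers, higher in LP, and T cell markers, lower in LP. Dnajc3, a co-chaperone of BiP, had log2 levels of 0.36, 0.40 and 0.45 in NP d21 rats and 0.60, 0.58 and 0.60 in LP d21 rats, then 0.10, 0.29 and 0.56 in NP d28 rats and 0.54, 0.55 and 0.78 in LP d28 rats. Its difference was 0.19 (SE 0.12) at d21 and 0.31 (SE 0.12, adjusted p = 0.581) at d28. Ppib, the ER cyclophilin B, differed by 0.21 (SE 0.13) and 0.30 (SE 0.13). Without NP d28 rat 4f the d28 differences were 0.20 for Dnajc3 and 0.19 for Ppib.

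Genes that share the ERSE of Hspa5 and Xbp1 were counted next. Of 21 gene symbols with an ERSE within the 250 bases, 17 were tested, 2 of them the members and 5 from the chaperone list. At d21 14 of the 17 had a higher mean in LP (median 0.19) and at d28 12 of 17 (median 0.22), the latter with a median of 0.08 without NP d28 rat 4f. The 10 that are neither members nor in the chaperone list had 7 higher in LP at d21 (median 0.08) and 5 higher, 5 lower at d28 (median 0.05). No gene of the 17 passed the adjusted threshold in the limma fit. At an unadjusted p under 0.05 there were 0 at d21 (against 4.36% of all probes) and 3 at d28 (against 8.07%), which were Xbp1 and Dnajc3, higher in LP, and Pan2, lower in LP with a difference of −0.40 (SE 0.15). Over both days 6 of the 17 had an unadjusted limma p under 0.05 (against 11.9% of all probes), 3 of them neither members nor in the chaperone list. Of 983 gene symbols with a CARE 209 were tested. These had medians of −0.01 at d21 and −0.04 at d28, close to those of all probes.

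Epithelial markers had higher means in LP as well. All 10 luminal markers had a higher mean in LP at d21 (median 0.79) and at d28 (median 0.58), and 0 were called. Of all probes 52.2% had a higher mean in LP at d21 and 42.7% at d28. At an unadjusted limma p under 0.05 there were 3 luminal markers at d21 (against 4.36% of all probes) and 0 at d28 (against 8.07%). Without LP d21 rat 6a the d21 median was 0.47, and without NP d28 rat 4f the d28 median was 0.25 with 9 of 10 higher. Of 7 basal and myoepithelial markers 6 were higher in LP at d21 (median 0.75) and 5 at d28 (median 0.54). Without LP d21 rat 6a the basal count at d21 was 7 of 7 (median 0.37), and without NP d28 rat 4f that at d28 was 3 of 7 (median −0.02). All 10 luminal markers were well above background on 12 of 12 arrays. Their mean log2 level was between −0.04 and 1.07 in NP d21, 0.42 and 1.99 in LP d21, −0.11 and 0.98 in NP d28, and 1.05 and 1.27 in LP d28. NP d28 rat 4f had the lowest luminal mean of the 12 arrays (−0.11) and the lowest Hspa5, but its Xbp1 lay between those of its group mates. LP d21 rat 6a had the highest luminal mean (1.99) and the highest Xbp1 at d21, but the lowest Hspa5 of its group. B and plasma cell markers, the other cells known for Xbp1, were lower in LP for 6 of 7 genes at d21 and 5 of 7 at d28. Skeletal muscle markers, 8 genes, varied widely between rats of a group. Their mean log2 level lay between −0.77 and 2.63 in NP d21 and between −5.07 and 3.02 in LP d21. At d28 it lay between −2.33 and −0.47 in NP and between −4.49 and 2.66 in LP. The highest LP values were those of rat 6a at d21 and rat 6f at d28. The part of any of these marker lists in the Xbp1 and Hspa5 differences was not tested.

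**Figure D3:**
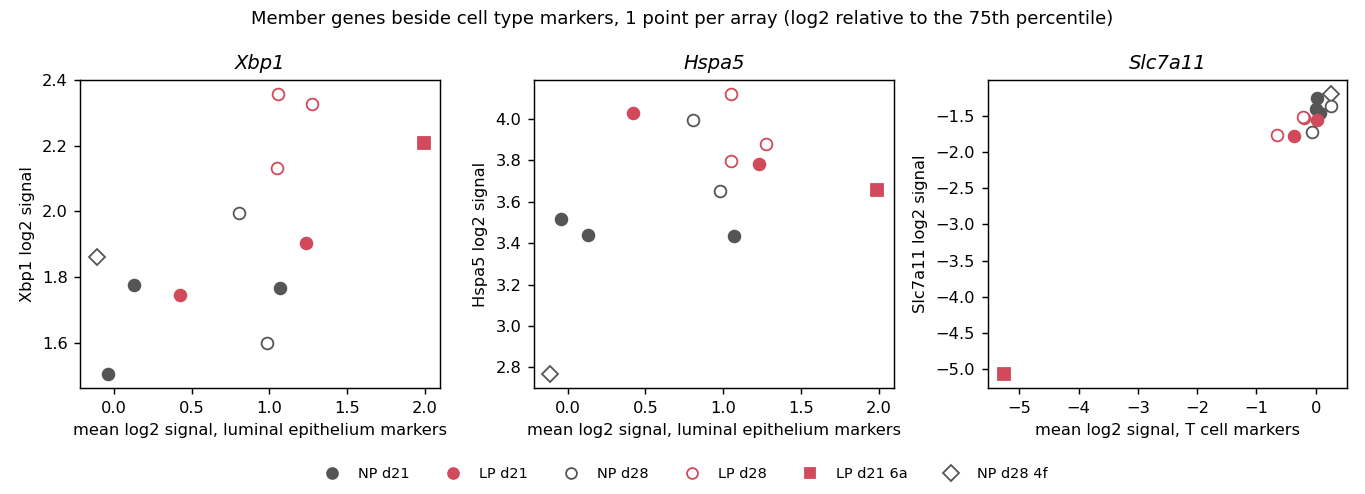
Member genes beside marker lists, with 1 point per array. The horizontal axes give the mean log2 level of 10 luminal markers (left and middle) or 7 T cell markers (right), the vertical axes the log2 level of the gene, grey is NP, red LP, filled d21, open d28, the square LP d21 rat 6a and the diamond NP d28 rat 4f. Rat 6a sits alone at the bottom left of the Slc7a11 panel, at −5.25 and −5.07.

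The rest of the 2 pathways was read from lists of other genes, none of which passed the test between diets. Among 12 sensors and regulators of eIF2 alpha, 8 were lower in LP at d21 and 10 at d28, with medians of −0.05 and −0.05. For this list and those that follow, all probes had medians of 0.01 at d21 and −0.05 at d28. Of all probes 52.2% were higher in LP at d21 and 42.7% at d28. Mbtps2, the site-2 protease that frees Atf6, was the most separated of them at d21. Its log2 level was −5.47, −5.42 and −5.63 in NP d21 rats and −6.07, −6.25 and −6.07 in LP d21 rats, a difference of −0.63 (SE 0.14, adjusted p = 0.861), and −0.25 (SE 0.14) at d28. Ern1, which encodes Ire1, differed by −1.03 (SE 0.37, adjusted p = 0.581) at d28, where LP rats 4f, 6f and 7f had −6.01, −7.84 and −6.62 and the NP rats −5.64, −5.66 and −6.07, and by −0.04 at d21. Without LP d28 rat 6f the Ern1 difference at d28 was −0.52. Without LP d28 rat 4f that of Mbtps2 was −0.10. Both probes are dim.

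Among 9 genes of ER associated degradation 5 were lower in LP on each day, beside 52.2% of all probes higher at d21 and 42.7% at d28. Derl1, a channel protein of that machinery, had 2.20, 1.94 and 2.06 in NP d21 rats against 1.74, 1.78 and 1.76 in LP d21 rats, a difference of −0.30 (SE 0.10, adjusted p = 0.861), and −0.15 (SE 0.10) at d28. Syvn1, its ubiquitin ligase, differed by −0.15 (SE 0.10) and −0.20 (SE 0.10). Without LP d28 rat 4f the d28 difference of Derl1 was −0.07, and that of Syvn1 at d21 was −0.09 without LP d21 rat 6a and −0.10 without NP d21 rat 6a. Derl1 and Syvn1 are named for the lowest p of the list, and their differences run opposite to those of the chaperones. The list as a whole was split in direction, and whether the lists differ was not tested.

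In the amino acid arm, 17 other Atf4 pathway genes had 10 members higher in LP on each day, with medians of 0.06 and 0.11. Pck2, a mitochondrial enzyme of gluconeogenesis, differed by 0.25 (SE 0.15) at d21 and 0.24 (SE 0.15) at d28, and Pycr1, of proline synthesis, by 0.29 (SE 0.42) and 0.72 (SE 0.42). Pycr1 at d28 was lowest in NP rat 4f, with −1.33 against 0.29 and 0.72 in rats 5f and 6f, and without that rat the d28 difference was 0.11. Without it that of Pck2 was 0.11, and without LP d21 rat 6a Pck2 at d21 was 0.15. Of 10 amino acid transporters 7 were higher at d21 and 8 at d28, with Slc38a2 (SNAT2, itself induced by amino acid shortage) at 0.23 (SE 0.11) and 0.13 (SE 0.11) and Slc7a5 (LAT1) at 0.19 (SE 0.25) and 0.46 (SE 0.25). Without LP d21 rat 6a Slc38a2 at d21 was 0.13 and Slc7a5 0.32. Slc7a5 at d21 was 0.08 without LP d21 rat 7c and 0.12 without NP d21 rat 4a, and at d28 it was 0.17 without NP d28 rat 5f. The Slc7a5 probe is dim.

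The 5 tested genes of serine and one carbon synthesis had a median of −0.18 at d21 and 0.01 at d28. Mthfd2, of mitochondrial folate metabolism, differed by −0.50 (SE 0.25) at d21, where LP rat 6a had −1.03 and its group mates −0.07 and −0.20, and Shmt2 by −0.26 (SE 0.16). Without rat 6a these were −0.20 for Mthfd2 and −0.06 for Shmt2, and the d21 median of the list was 0.04. Of 17 aminoacyl tRNA synthetases 11 were higher in LP at d21 and 16 at d28, with medians of 0.04 and 0.07, and without NP d28 rat 4f 12 were higher at d28. Among 8 immediate early genes, which respond to handling and dissociation, 5 were higher at d21 and 2 at d28, with Ier2 at −0.06 (SE 0.12) and −0.30 (SE 0.12) and Junb at −0.04 (SE 0.20) and −0.41 (SE 0.20). Without LP d21 rat 6a 1 of these 8 was higher at d21, and without NP d28 rat 4f 4 were higher at d28, with Junb at −0.17.

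**Figure D4:**
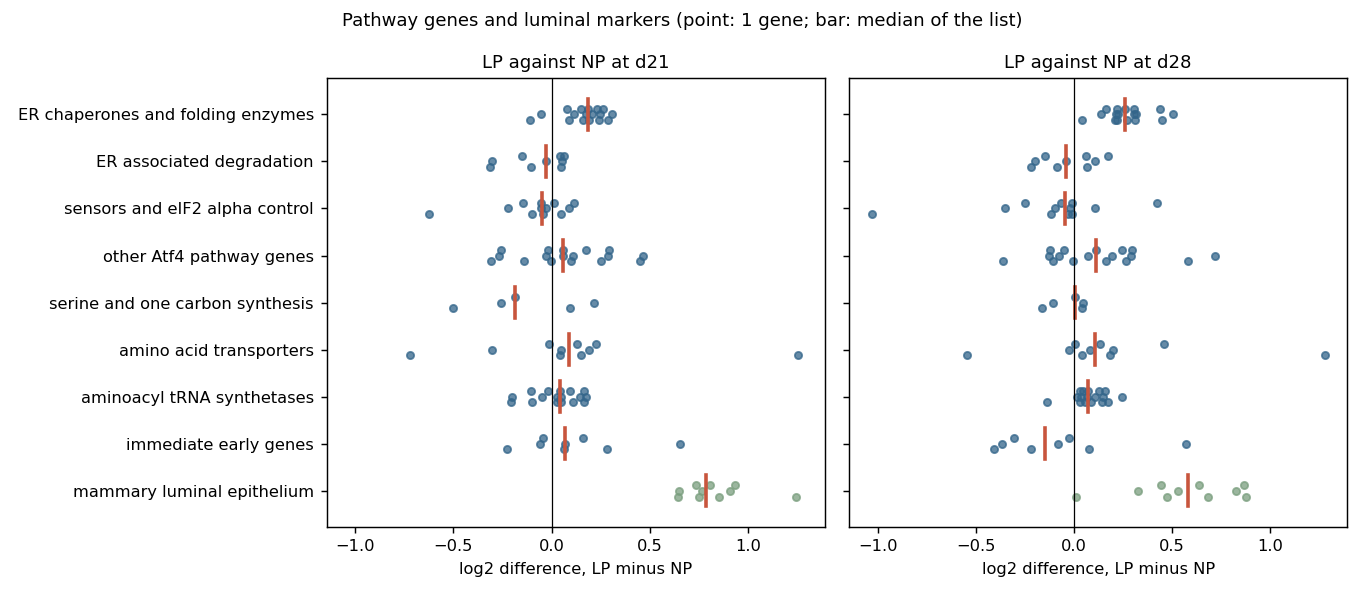
Differences between LP and NP for the other genes of the pathways and for luminal markers. The horizontal axes give log2 LP minus NP at d21 (left) and d28 (right), blue points are single genes, green points luminal markers, and bars are list medians. The chaperone points lie to the right of 0 in 15 of 17 genes at d21 and 17 of 17 at d28, and the luminal points in 10 of 10 on both days.

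Between d21 and d28 no member passed the test. In the limma fit 0 of 10 had an adjusted p under 0.05 in NP (0.25% of all probes did), in LP (0% did) or over both diets (1.81% did), with lowest adjusted p-values of 0.255, 0.492 and 0.146. At an unadjusted p under 0.05 the counts were 2 in NP (against 12.8%), 1 in LP (against 10.1%) and 3 over both diets (against 19.2%). The days did not overlap for 2 members in NP and 1 in LP, where 18.7% and 18.7% of all probes did not. Over both diets 9 of 10 had a higher mean at d28, with a median of 0.21 against 0.01 for all probes.

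Atf4 was 0.27 (SE 0.11, adjusted p = 0.324) higher at d28 in NP, with all 3 d28 rats above all 3 d21 rats, and the difference in LP was 0.11 (SE 0.11), again without overlap. Sesn2 had a lower mean at d28, with a difference of −0.39 (SE 0.13, adjusted p = 0.255) in NP, without overlap, and −0.16 (SE 0.13) in LP. Atf3 differed by 0.64 (SE 0.28, adjusted p = 0.492) in LP and 0.30 (SE 0.28) in NP, with overlap in both. Xbp1 differed by 0.14 (SE 0.15) in NP and 0.32 (SE 0.15) in LP. Slc7a11 differed by 1.20 (SE 0.73) in LP, and by 0.07 (SE 0.17) without LP d21 rat 6a. Hspa5 differed by 0.01 (SE 0.26) in NP, and by 0.36 (SE 0.15) without NP d28 rat 4f. The day differences of NP and of LP were not shown to differ for any member, since the change of the diet difference between days had an adjusted p of 0.9999 at the lowest.

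The rule for the pathway lists named 1 gene with a call, the valine tRNA synthetase Vars. The call was between d21 and d28 over both diets, where 1.81% of all probes were called. Its log2 level was −3.78, −3.37 and −3.09 in NP d21 rats, −3.30, −3.43 and −3.56 in LP d21 rats, −4.26, −4.15 and −3.86 in NP d28 rats, and −4.02, −3.86 and −3.90 in LP d28 rats. Over both diets it fell by 0.59 on the log2 scale (SE 0.12, limma adjusted p = 0.0466) from d21 to d28, with all 6 d28 rats below all 6 d21 rats. Its adjusted p was above 0.05 in 15 of 22 alternative settings. Of the 17 synthetases, 13 had a lower mean at d28 over both diets, where 52.4% of all probes had a higher mean.

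**Figure D5:**
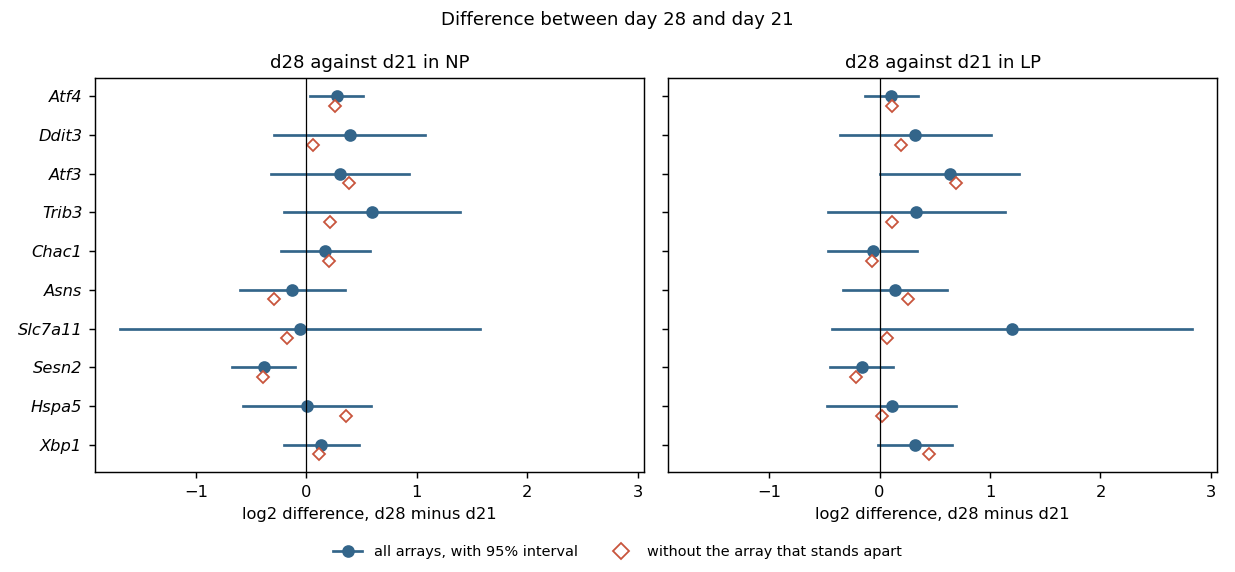
Difference between d28 and d21 for each gene in NP (left) and LP (right). The horizontal axes give log2 d28 minus d21, circles are the fit on all 12 arrays with 95% intervals, and open diamonds leave out NP d28 rat 4f (left) or LP d21 rat 6a (right). Slc7a11 in LP moves from 1.20 to 0.07 and Hspa5 in NP from 0.01 to 0.36.

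Members were also set against each other over the 12 arrays, after taking out the mean of each day, in 45 pairs with a permutation test within day. No pair had an adjusted p under 0.05, and 6 had an unadjusted permutation p under 0.05. The closest pair was Ddit3 and Trib3, with Pearson r = 0.86 (permutation p = 0.00119, adjusted p = 0.0535) and Spearman rho = 0.71 (permutation p = 0.0191, adjusted p = 0.215). Without NP d28 rat 4f and NP d21 rat 4a r was 0.66. Trib3 and Xbp1 ran in opposite directions, with r = −0.68 (permutation p = 0.0284, adjusted p = 0.256) and rho = −0.73 (permutation p = 0.0142, adjusted p = 0.215), and r was −0.72 without NP d28 rat 4f and LP d28 rat 6f. Both genes of a pair were read from the same RNA, label and scaling on each array, and the diets were pooled.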

How the data were processed

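Total RNA of 12 mammary glands was labelled with Cy3 and hybridised to 1-colour arrays with 58717 gene spots. Replicates are named as in the sample labels. For each array the authors deposited scanner output of Agilent Feature Extraction 10.7.3.1, whose processed intensity is background-subtracted and corrected for trends within the array but not between arrays. A second file of signal values deposited by the authors equals the scanner values times 1 constant per array (largest relative deviation 6.56e-05), and was used as an alternative. Flags for outliers and for signal well above background (other columns) came from the same deposited files. Probe positions are those of the array annotation on rn4.

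After removal of 4259 control spots and of 259 to 766 outlier spots on each array, the 75th percentile of the array was subtracted from log2 values and the spots of a probe were averaged. The 23209 of 30367 probes that were well above background on 3 or more arrays were tested in 1 limma 3.58.1 fit of the 4 groups (lmFit, contrasts.fit, eBayes, R 4.3.3), two-sided, with Benjamini-Hochberg adjustment over all tested probes. The fold changes reported were computed as log2 differences. The methods of the study name another analysis system, whose error model was not used here. The number of arrays limits the precision, since 3 rats per group share 1 estimate of the spread. The main probe of a gene is the one with the highest mean. The members, the pathway and marker lists and the tests were chosen with earlier results of these data known. All members are named, and of each pathway list the genes with an adjusted p under 0.05 or otherwise the 2 with the lowest p between diets. Missing from the array were Mthfd1l, Gars, Fosb, Edem1, Derl2, Vimp and 6 marker symbols. Correlations used 1e+05 resamples. The fit was tested on simulated data. Alternatives were quantile normalization, normexp background correction, other filters, variance models, replicate blocks, array row, the deposited table, mean of probes, and leaving out each array. Lists, ERSE genes and named list genes were recomputed without single arrays, and the ERSE genes without members and chaperones, as choices made after seeing the data.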

Additional observations from a re-analysis of the deposited data

How the results depend on the processing

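No count of called members changed under any alternative: it stayed at 0 of 10 in all 7 comparisons, with 0.122 as the lowest adjusted p of a member over all of them. Of 1330 alternative values of single members, 48 had the opposite sign to the reported one, and 42 of 60 member differences kept their sign throughout. The reversals were of uncalled differences, the largest of them −0.24 for Ddit3 (LP minus NP at d28), and the cause was not tested. Beside it, the median absolute difference of all probes at d28 was 0.18. With quantile normalization the d28 minus d21 difference over both diets was −0.0306 for Asns and −0.0361 for Hspa5, that of Hspa5 in NP was −0.104, and LP minus NP at d28 was 0.00466 for Atf4. With normexp background correction the day difference over both diets was −0.0557 for Asns and −0.0105 for Hspa5, in NP −0.165 for Hspa5 and −0.0209 for Xbp1, in LP 0.0165 for Chac1, and LP minus NP at d28 was 0.00593 for Atf3. With the array row as a covariate LP minus NP was −0.0741 for Chac1 at d21, 5.31e−06 for Atf3 and 0.489 for Slc7a11 at d28, and 0.000718 for Asns over both days.

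The main fit does not pair samples by replicate number, which the labels do not explain, and treats rats of d21 and d28 as independent. Same-numbered arrays of the 2 days had correlated deviations over 0.1 in 2 of 3 pairs in NP (0.03 to 0.17) and 2 of 3 in LP (−0.06 to 0.38). Among arrays of the same diet on the other day, 10 of 12 arrays correlated best with their own number. This is a hint from the data that numbers mark pairs. The methods of the study say that animals of each litter were killed at both days, so rats of d21 and d28 may be littermates. They do not say that a number marks a litter, and the day tests of the main fit ignore any shared litter. With the number as a replicate block 0 of 10 members were called, LP minus NP at d28 was −0.0064 for Asns and 0.034 for Atf4, and 5 members had an unadjusted limma p under 0.05 between days over both diets. With diet and number together as the block 0 were called as well.

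Leaving out 1 array at a time gave these ranges where the sign changed. For LP minus NP at d28 they were −0.0116 to 0.275 for Asns, −0.287 to 0.218 for Atf3, −0.0354 to 0.014 for Atf4, −0.417 to 0.00656 for Chac1 and −0.491 to 0.0951 for Ddit3. At d21 it was −0.00296 to 0.0185 for Chac1, and over both days −0.0989 to 0.0599 for Asns and −0.204 to 0.00731 for Chac1. For d28 minus d21 in NP they were −0.29 to 0.00989 for Asns, −0.0603 to 0.363 for Chac1, −0.256 to 0.358 for Hspa5 and −0.173 to 0.0929 for Slc7a11. In LP it was −0.132 to 0.012 for Chac1, and over both diets −0.0753 to 0.086 for Asns, −0.0611 to 0.151 for Chac1 and −0.0736 to 0.233 for Hspa5. The day difference of Vars over both diets ranged from −0.680 to −0.506 when 1 array was left out, where 2 of 12 fits kept the call. It was −0.416 with normexp, and its adjusted p over all alternatives lay between 0.0312 and 0.116. Dim probes (Trib3, Chac1, Sesn2, Mbtps2, Ern1, Slc7a5, Vars) rest on little signal over background.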
